A study of Mus musculus with 12 samples.

Results

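The 9 genes described here are nuclear genes whose proteins copy, package and transcribe mitochondrial DNA (mtDNA), or switch on the genes that do. They are Tfam, Polg, Polg2, Peo1, Ssbp1, Polrmt, Tfb1m, Tfb2m and Nrf1, and Peo1 is the older symbol of Twnk. They were chosen by symbol and not by their values, though earlier results of these data were known. Of the 9 genes, 8 had a row among the 11385 genes of the deposited count table, and Polg2, whose level is not analysed here, enters only the search of start-site sequences.

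Germinal-vesicle oocytes, which are arrested in meiotic prophase, were profiled by sequencing of their total RNA in 4 groups: WT, Mfn1-/-, Mfn2-/- and Mfn1&2-/-, which lacks both genes. Each group had n = 3 libraries, and each library was made from a pool of 50 oocytes freed of cumulus cells. All mice were C57BL/6J, had received no hormone priming and were 21 to 23 days old. The labels name neither a Cre driver nor the cells in which the genes were deleted, and they do not say whether pools came from separate animals. P-values therefore measured the spread between pools, which may be technical in part. Each level is a pooled average over 50 oocytes, in which fewer expressing cells and less RNA per cell cannot be told apart.

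Libraries held 11575357 to 16024893 counts, so that 3 counts stood at 0.188 to 0.253 CPM (counts scaled by library size with TMM factors, here as edgeR gives them). Mfn1, the gene deleted in Mfn1-/- and Mfn1&2-/-, was at 280 ± 16.4 CPM in WT (SD, n = 3), 18.1 ± 0.70 in Mfn1-/-, 230.2 ± 14.2 in Mfn2-/- and 20.1 ± 5.87 in Mfn1&2-/-. Mfn2 was at 76.3 ± 9.75, 66.5 ± 3.74, 11.2 ± 2.19 and 10.8 ± 1.31 CPM in the same order, so both genes followed the labels. All 9 oocyte markers (Zp1, Zp2, Zp3, Gdf9, Bmp15, Oosp1, Mos, Nlrp5 and Kit) were measured, with a summed level of 10880 to 13480 CPM in WT, 11740 to 13840 in Mfn1-/-, 14040 to 15840 in Mfn2-/- and 11890 to 14020 in Mfn1&2-/-. Of 13 granulosa markers, 9 were measured, and their sum was 502 CPM in WT replicate 3 against 147 to 217 CPM in the other 11 libraries. Much of the sum in WT replicate 3 came from Inha, Inhba and Inhbb, at 77.9, 71.3 and 155 CPM. Their highest values in the other libraries were 19.8, 5.31 and 16.99 CPM. Cyp19a1, Nr5a2 and Hsd17b1 were also highest in WT replicate 3, but Fshr, Kitl and Gata4 were highest in other libraries. By group, the granulosa sum was 184 to 502 CPM in WT, 160 to 178 in Mfn1-/-, 152 to 177 in Mfn2-/- and 147 to 155 in Mfn1&2-/-, and Fshr was at 0 in WT replicate 1 and Mfn1&2-/- replicate 1. Of the 8 factors, 3 (Peo1, Tfb2m and Nrf1) had their highest value of the 12 libraries in WT replicate 3. The part of granulosa RNA in these values was not tested, and values without that library are given for Nrf1, Peo1 and Tfb2m.

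Mitochondria carry their own small genome, which encodes core subunits of the respiratory chain and is copied and read by proteins imported from the cytosol. DNA polymerase gamma (Polg with its accessory subunit Polg2), the helicase Twinkle (Peo1) and the single-strand binding protein Ssbp1 form the replication machine, while the RNA polymerase Polrmt starts transcription with Tfam and Tfb2m. The growing oocyte accumulates an exceptionally large store of mtDNA for the embryo, and mitofusins, the outer-membrane GTPases deleted here, join mitochondria and so let their contents mix.

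Nrf1 encodes nuclear respiratory factor 1, a transcription factor known for binding promoters of mitochondrial genes, and GABP is an ETS-family factor known for the same class of promoters. The start-site regions of 4 members are shown because Nrf1 was the member that differed most, and the printed members carry the matches described next. Sequences are from RefSeq on GRCm38.p6, 5′ to 3′ on the strand of the gene, from 150 bases before the annotated start site to 29 after it. Capitals mark matches on either strand to the NRF1 palindrome (GCGC and TGCGC with any 1 base between them), CATGCGC (the short NRF1 site) or CCGGAAG (the ETS core, CTTCCGG on the other strand).
Polrmt, chr10:79746552-79746731, minus strand: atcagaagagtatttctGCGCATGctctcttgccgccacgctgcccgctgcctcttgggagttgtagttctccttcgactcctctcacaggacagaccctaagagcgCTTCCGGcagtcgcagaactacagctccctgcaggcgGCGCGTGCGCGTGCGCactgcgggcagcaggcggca
Tfb2m, chr1:179546247-179546426, minus strand: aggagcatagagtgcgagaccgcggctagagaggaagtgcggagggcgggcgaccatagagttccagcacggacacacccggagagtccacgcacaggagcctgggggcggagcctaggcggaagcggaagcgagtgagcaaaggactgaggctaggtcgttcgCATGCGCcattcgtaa
Tfam, chr10:71238015-71238194, minus strand: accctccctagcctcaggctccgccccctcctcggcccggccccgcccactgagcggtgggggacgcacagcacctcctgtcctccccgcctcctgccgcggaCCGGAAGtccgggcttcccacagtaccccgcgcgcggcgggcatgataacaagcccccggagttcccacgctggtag
Peo1 (Twnk, second of 2 annotated starts), chr19:45006408-45006587, plus strand: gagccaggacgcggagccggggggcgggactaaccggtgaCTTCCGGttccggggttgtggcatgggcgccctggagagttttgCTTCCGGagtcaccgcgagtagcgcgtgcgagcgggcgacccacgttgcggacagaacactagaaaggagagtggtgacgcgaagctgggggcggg

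Polrmt held 2 overlapping matches to the palindrome pattern at the start site itself, beginning 6 bases before it and at it. Both read GCGCGTGCGC, which is not a palindrome by its letters. Polrmt also held a short NRF1 site 133 bases before the start and an ETS core 43 bases before it. Tfb2m held a short NRF1 site 14 bases after its start, and Tfam an ETS core 47 bases before its start. This RefSeq start of Tfam lies 236 bases inside the gene span given below, which is from GENCODE. Over full windows of 300 bases, the palindrome was in 1 of 11 windows of the 9 members against 4.6% of 32851 windows of all genes, the short site in 2 against 3.91%, and the ETS core in 6 against 8.86%. Ssbp1, Polg, Polg2 and the second Peo1 window held the ETS core, and no match to the 3 motifs was in the window of Tfb1m, in the 2 of Nrf1 or in the first of Peo1. A match describes letters, not a bound site.

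Among the 8 measured factors, Nrf1 was the member that changed in Mfn2-/- oocytes, where it fell to a lower level than in any other group. The helicase gene Peo1 stood near 20 CPM in both groups without Mfn1 and was higher in most libraries with it. Peo1 fell when the 2 Mfn1-null groups were averaged, a call lost without each of 9 of the 12 libraries. In Mfn1&2-/-, 8 of 8 factors had a log2 fold change below 0 against WT, but none passed the test across all genes. From the lowest to the highest of the 12 libraries, Polg, the polymerase, ranged 1.46-fold and Ssbp1 1.61-fold. Tfam, the packaging protein, ranged 1.72-fold and Tfb1m 1.76-fold. The plot of levels by library shows all 96 values behind these statements.

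**Figure D1:**
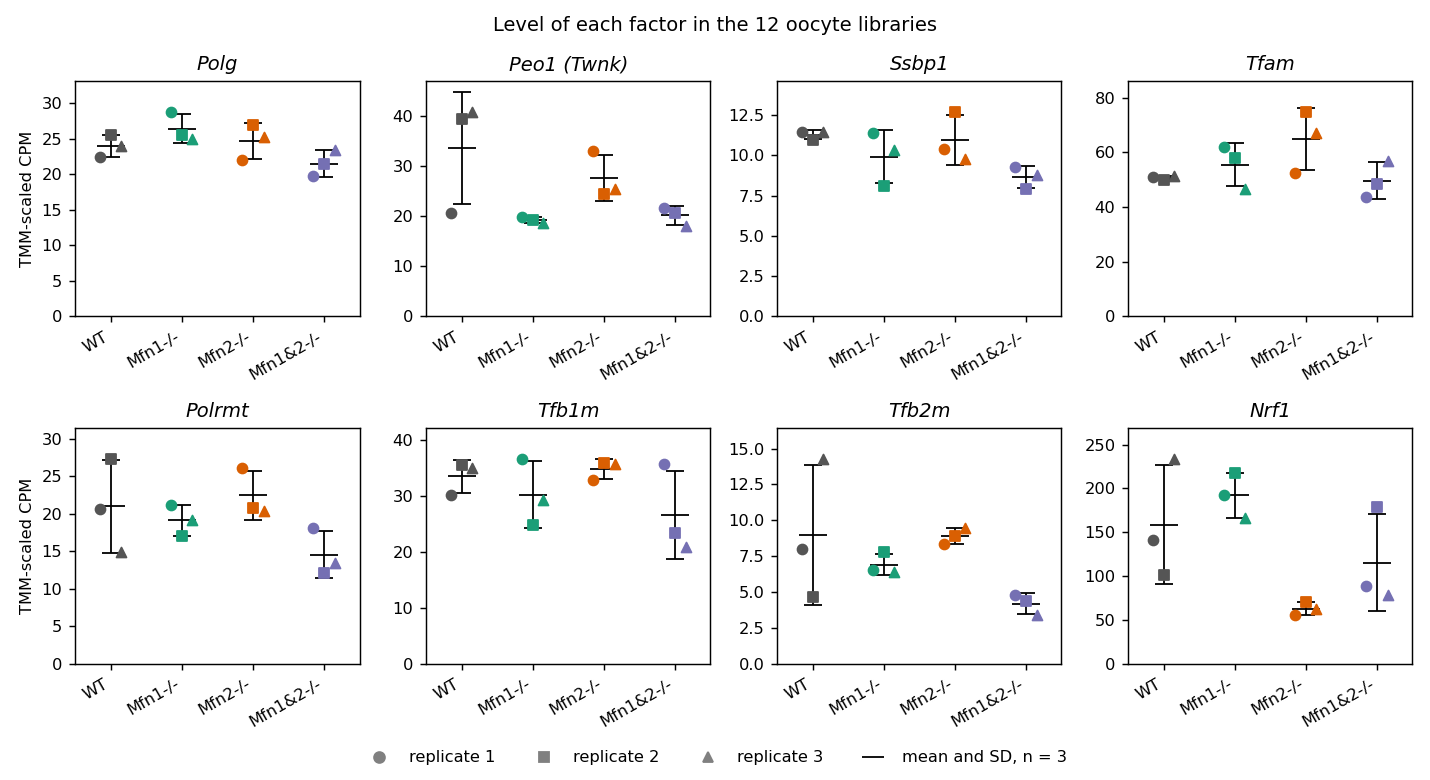
Level of each of the 8 measured factors, in TMM-scaled CPM (vertical axes from 0), in the 4 groups (horizontal axis). Points are single libraries, shaped by replicate number, and bars are the mean and SD of n = 3. Nrf1 lies between 55.1 and 70.7 CPM in Mfn2-/-, below the WT range of 101 to 234 CPM, and Peo1 lies between 18.2 and 21.7 CPM in the 6 Mfn1-null libraries.

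Levels in WT were compared between genes per kilobase of merged exons, so the order depends on the annotated length used. Nrf1 had the highest level at 15.4 ± 6.61 CPM per kb (SD, n = 3), followed by Tfam at 11.4 ± 0.134, Tfb1m at 9.31 ± 0.819 and Peo1 at 8.40 ± 2.80. Polrmt followed at 4.48 ± 1.32 CPM per kb, then Tfb2m at 3.20 ± 1.75, Polg at 2.23 ± 0.145 and Ssbp1 at 1.35 ± 0.0322. Ranges of neighbours in this order overlapped except between Tfam and Tfb1m and between Polg and Ssbp1. The lowest Tfb2m library (1.65 CPM per kb) lay below all Polg libraries (2.09 to 2.38), and Ssbp1, at 1.31 to 1.37, was the only gene below all others in every WT library. Merged exons count every annotated isoform, which understates genes with a long minor isoform. Ssbp1, for example, has 8360 bases of merged exons in GENCODE vM21.

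Nrf1 (GRCm38, chromosome 6, 30047988 to 30153458, plus strand) was at 141, 101 and 234 CPM in WT replicates 1 to 3. It was at 193, 218 and 167 CPM in Mfn1-/-, at 55.1, 70.7 and 62.4 CPM in Mfn2-/-, and at 88.3, 179 and 78.1 CPM in Mfn1&2-/-. All 3 Mfn2-/- libraries lay below every library of the other 3 groups, and Mfn1&2-/- had 1 library, replicate 2, at the level of Mfn1-/-. Nrf1 fell in Mfn2-/- by 1.34 ± 0.29 on the log2 scale (± approximate standard error; edgeR adjusted p = 0.00857), where 11.4% of all genes were called. It also fell when Mfn2 loss was averaged over both Mfn1 states, from 175.5 ± 49.5 CPM in 6 Mfn2-intact libraries to 88.9 ± 45.5 CPM in 6 Mfn2-null ones (log2 fold change -1.04 ± 0.20, edgeR adjusted p = 0.00381; 12.4% of all genes called). The second value contains the first and does not stand apart from it. In Mfn2-/- against WT, 4 of 9 oocyte markers were called higher and 4 of 9 granulosa markers lower by the edgeR test, and their part in the Nrf1 difference was not tested.

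Both Nrf1 calls held under all alternatives, including each of the 12 libraries left out in turn. Without WT replicate 3, the library with the highest granulosa sum, the Mfn2-/- difference was -0.95 with an edgeR adjusted p of 0.0499, just inside the threshold. Against WT, Nrf1 was not called in Mfn1-/- (0.28 ± 0.28, edgeR adjusted p = 0.722) or in Mfn1&2-/- (-0.46 ± 0.29, edgeR adjusted p = 0.427; -0.07 without WT replicate 3). Nrf1 was 0.88 ± 0.29 log2 units higher in Mfn1&2-/- than in Mfn2-/-, with no overlap between the libraries, at an edgeR adjusted p of 0.0664. That difference was called without WT replicate 2 (edgeR adjusted p = 0.0489), without WT replicate 3 (0.0337) or without Mfn1&2-/- replicate 3 (0.0389). Whether the effect of losing Mfn2 depended on Mfn1 was tested by the interaction, which was not called for Nrf1 (0.60 ± 0.41, 95% interval -0.26 to 1.46, edgeR adjusted p = 0.426). Against Mfn1-/-, Mfn1&2-/- was at -0.74 ± 0.29 (edgeR adjusted p = 0.149), and at -1.21 without its own replicate 2 (edgeR adjusted p = 0.0172). The averaged Mfn1 loss stood at 0.58 ± 0.20 (edgeR adjusted p = 0.119), and it was called without WT replicate 3 (0.77, edgeR adjusted p = 0.0338).

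**Figure D2:**
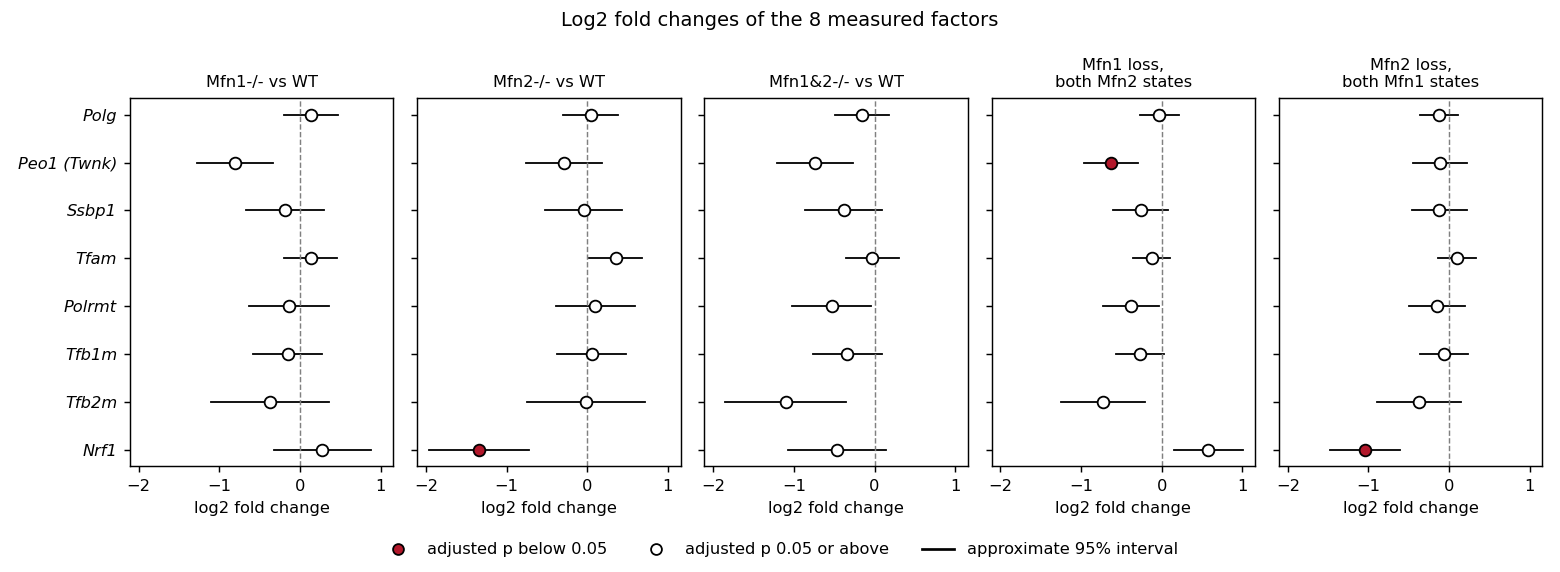
Log2 fold change (horizontal axes) of the 8 factors in 5 comparisons, with approximate 95% intervals. Filled points passed an edgeR adjusted p of 0.05: Nrf1 in Mfn2-/- against WT (-1.34) and in the averaged Mfn2 loss (-1.04), and Peo1 in the averaged Mfn1 loss (-0.63).

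The basal transcription factors were not called in any comparison by the edgeR test. Tfam (chromosome 10, 71225464 to 71238280, minus strand) binds and bends mtDNA, packages it into nucleoids and is needed for transcription to start. It was at 50.9, 50.1 and 51.3 CPM in WT, 62.0, 57.9 and 46.8 in Mfn1-/-, 52.7, 74.9 and 67.1 in Mfn2-/-, and 43.6, 48.6 and 56.8 in Mfn1&2-/-. The 3 WT libraries were nearly equal, and all 3 Mfn2-/- libraries lay above them, the lowest by little more than 1 CPM. The Mfn2-/- difference was 0.35 ± 0.15 (95% interval 0.03 to 0.68, edgeR adjusted p = 0.157), and Mfn1&2-/- stood at -0.03 ± 0.15 (-0.36 to 0.30, edgeR adjusted p = 0.947). Tfam had the smallest unadjusted interaction p of the 8 factors (-0.52 ± 0.22, unadjusted p = 0.0312, edgeR adjusted p = 0.186), in a comparison where 21.1% of all genes had an unadjusted p below 0.05 and 4.13% were called. In Mfn2-/- oocytes all Tfam libraries were thus above WT and all Nrf1 libraries below it, but only Nrf1 was called. In that comparison 32% of all genes had no overlap between groups.

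Polrmt (chromosome 10, 79736123 to 79746581, minus strand) is the only RNA polymerase of mitochondria and also makes the primers for replication. It was at 20.7, 27.3 and 14.9 CPM in WT, 21.2, 16.99 and 19.2 in Mfn1-/-, 26.2, 20.8 and 20.4 in Mfn2-/-, and 18.1, 12.1 and 13.4 in Mfn1&2-/-. WT spanned nearly the whole range of the other groups, and the Mfn1&2-/- libraries lay below all Mfn2-/- libraries. Polrmt differed from Mfn2-/- by -0.63 ± 0.23 (edgeR adjusted p = 0.0974) and from WT by -0.53 ± 0.23 (edgeR adjusted p = 0.228).

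Tfb2m (chromosome 1, 179528055 to 179546267, minus strand) opens the promoter for the polymerase and was the member with the fewest counts, 45 to 171 per library. It was at 7.99, 4.64 and 14.3 CPM in WT, 6.54, 7.77 and 6.41 in Mfn1-/-, 8.32, 8.88 and 9.44 in Mfn2-/-, and 4.80, 4.34 and 3.41 in Mfn1&2-/-. The Mfn1&2-/- libraries lay below all libraries of both single losses, while WT covered values from the lowest to the highest group. Against WT the double loss stood at -1.10 ± 0.35 (edgeR adjusted p = 0.0938), and it was called with DESeq2 (adjusted p = 0.0486) and without WT replicate 2 (edgeR adjusted p = 0.0315). Without WT replicate 3, its highest library, it was -0.60 (edgeR adjusted p = 0.403). Against Mfn2-/- it stood at -1.09 ± 0.35 (edgeR adjusted p = 0.0615). There it was called with DESeq2 (adjusted p = 0.0332), with scaling by library size only (0.0483), with the compared groups alone (0.0413), and without WT replicate 2 (0.0328) or WT replicate 3 (0.0275). The averaged Mfn1 loss of Tfb2m was -0.73 ± 0.25 (edgeR adjusted p = 0.105), and it was called without WT replicate 2 (-0.89, edgeR adjusted p = 0.0442) and -0.48 without WT replicate 3 (edgeR adjusted p = 0.226). A processed pseudogene, Gm15480, lies on the other strand over 519 bases of the Tfb2m span.

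Tfb1m (chromosome 17, 3519256 to 3557781, minus strand) is related to Tfb2m and methylates the RNA of the small mitochondrial ribosomal subunit. It was at 30.2, 35.5 and 35.1 CPM in WT, 36.7, 24.8 and 29.4 in Mfn1-/-, 32.8, 36.0 and 35.8 in Mfn2-/-, and 35.7, 23.4 and 20.8 in Mfn1&2-/-. In both Mfn1-null groups replicate 1 was just above the WT range and the other 2 libraries were below it. Tfb1m was not called in any comparison, and the largest difference, Mfn1&2-/- against Mfn2-/-, was -0.39 ± 0.20 (edgeR adjusted p = 0.24), or -0.66 without Mfn1&2-/- replicate 1 (edgeR adjusted p = 0.042). Tiam2 overlaps the Tfb1m span by 12089 bases on the other strand, and the strand setting of the authors' counting is not known here. Tiam2 was at 240.4 ± 29.4 CPM in WT and 125.0 ± 22.4 in Mfn1&2-/- (-0.94 ± 0.13, edgeR adjusted p = 0.000673), and in Mfn2-/- it was at 144 ± 15.7 CPM, where Tfb1m stood at 34.9 ± 1.79 against 33.6 ± 2.96 in WT.

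In the replication machine, Peo1 was the member called by the edgeR test, in the averaged Mfn1 loss only. Peo1 (Twnk; chromosome 19, 45005663 to 45012762, plus strand) encodes Twinkle, the helicase that unwinds mtDNA ahead of the polymerase. It was at 20.8, 39.5 and 40.9 CPM in WT, 19.9, 19.3 and 18.7 in Mfn1-/-, 33.0, 24.6 and 25.5 in Mfn2-/-, and 21.7, 20.7 and 18.2 in Mfn1&2-/-. WT replicate 1 stood at the level of the Mfn1-null libraries, and the other 5 libraries with Mfn1 were above all 6 without it. Averaged over both Mfn2 states, Peo1 fell from 30.7 ± 8.37 CPM in 6 Mfn1-intact libraries to 19.8 ± 1.32 CPM in 6 Mfn1-null ones (-0.63 ± 0.16, 95% interval -0.97 to -0.29, edgeR adjusted p = 0.0368), where 4.4% of all genes were called.

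This Peo1 call was close to the threshold. It was kept without WT replicate 1, Mfn2-/- replicate 2 or Mfn1&2-/- replicate 1, and lost without each of the other 9 libraries, with log2 fold changes of -0.76 to -0.55 and edgeR adjusted p-values up to 0.0876 over the 12 omissions. It was also lost with limma-voom (adjusted p = 0.0539). Against WT alone, Peo1 stood at -0.80 ± 0.22 in Mfn1-/- with no overlap (edgeR adjusted p = 0.14; DESeq2 adjusted p = 0.0404) and at -0.74 ± 0.22 in Mfn1&2-/- (edgeR adjusted p = 0.077; DESeq2 adjusted p = 0.0293). Without WT replicate 1 these were -1.06 (edgeR adjusted p = 0.0351) and -0.99 (edgeR adjusted p = 0.00788), and without WT replicate 3 they were -0.64 (edgeR adjusted p = 0.388) and -0.58 (edgeR adjusted p = 0.242). In Mfn2-/- Peo1 was at -0.28 ± 0.22 (edgeR adjusted p = 0.461), and the interaction was 0.35 ± 0.32 (95% interval -0.32 to 1.02, edgeR adjusted p = 0.57). Mrpl43, a ribosomal protein gene that overlaps Peo1 by 780 bases on the other strand, was at 4.02 ± 0.656 CPM in WT and 5.02 ± 2.48 in Mfn1-/- (0.32 ± 0.60, edgeR adjusted p = 0.859).

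Polg (chromosome 7, 79446231 to 79466362, minus strand), the catalytic subunit of the mtDNA polymerase, was at 22.4, 25.6 and 24.0 CPM in WT, 28.8, 25.6 and 24.9 in Mfn1-/-, 22.0, 26.9 and 25.2 in Mfn2-/-, and 19.7, 21.4 and 23.4 in Mfn1&2-/-. Groups overlapped in all comparisons but Mfn1&2-/- against Mfn1-/-, where all 3 double-null libraries were lower (-0.30 ± 0.16, edgeR adjusted p = 0.309). Against WT the 95% intervals of Polg were -0.20 to 0.48 in Mfn1-/-, -0.29 to 0.38 in Mfn2-/- and -0.49 to 0.18 in Mfn1&2-/-. Fanci, which overlaps Polg by 4034 bases on the other strand, was at 111 ± 4.45 CPM in Mfn2-/- and 44.7 ± 5.55 in Mfn1&2-/- (-1.31 ± 0.20, edgeR adjusted p = 0.000999). Over the same libraries Polg was at 24.7 ± 2.51 and 21.5 ± 1.85 CPM (-0.20 ± 0.16, edgeR adjusted p = 0.469). Fanci was also lower in Mfn1&2-/- than in Mfn1-/- (-0.96 ± 0.20, edgeR adjusted p = 0.00926), where Polg stood at -0.30. Both genes had their lowest group mean in Mfn1&2-/-. Whether Fanci reads entered the Polg counts was not tested.

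Ssbp1 (chromosome 6, 40471352 to 40484700, plus strand) coats the single strands that Twinkle opens. It was at 11.4, 10.97 and 11.4 CPM in WT, 11.4, 8.09 and 10.3 in Mfn1-/-, 10.4, 12.7 and 9.77 in Mfn2-/-, and 9.26, 7.89 and 8.78 in Mfn1&2-/-. All 3 Mfn1&2-/- libraries lay below WT and below Mfn2-/-, by less than the test required (-0.38 ± 0.23 against WT, 95% interval -0.87 to 0.10, edgeR adjusted p = 0.397).

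Counted over the 8 factors, the edgeR test called 0 in Mfn1-/- against WT (0.228% of all genes called), 1 in Mfn2-/- (11.4%) and 0 in Mfn1&2-/- (4.21%). It called 0 in Mfn1&2-/- against Mfn1-/- (5.36%), 0 against Mfn2-/- (10.2%) and 0 in the interaction (4.13%). In the averaged Mfn1 and Mfn2 losses it called 1 (4.4%) and 1 (12.4%). At an unadjusted p below 0.05 the counts were 1, 2 and 3 against WT, beside 12.8%, 26% and 18.6% of all genes. They were 1 against Mfn1-/- (20.7%), 4 against Mfn2-/- (25.7%) and 1 in the interaction (21.1%). The averaged Mfn1 and Mfn2 losses had 4 (21.1%) and 1 (26.4%). DESeq2 called 1, 1 and 2 factors against WT (1.97%, 14.9% and 7.33% of genes), 0 against Mfn1-/- (9.18%), 1 against Mfn2-/- (14.7%) and 0 in the interaction (7.93%). With so few factors, 1 call more or less moves a share by over 10 points, and most of these counts stand near the shares over all genes. Those furthest above, at an unadjusted p below 0.05, were 4 in the averaged Mfn1 loss and 4 against Mfn2-/-. Next were 3 in Mfn1&2-/- against WT, and 2 there with DESeq2.

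In the double loss all 8 factors leaned the same way. Against WT, 8 of 8 had a log2 fold change below 0, where 49.6% of all genes did, with a median of -0.42 against 0.00 over all genes. The range over members ran from -1.10 for Tfb2m to -0.03 for Tfam. For 7 of the 8, every factor but Nrf1, the lowest of the 12 libraries was one of the 3 Mfn1&2-/- libraries (replicates 1, 2 and 3 for 2, 2 and 3 factors). The share of all genes with that pattern was not counted. The sign held for 8 of 8 under each of 19 alternatives and for 7 of 8 without Mfn1&2-/- replicate 1, where Tfam stood at 0.05. With no filter the genes tested were the same, and omitting Mfn1-/- or Mfn2-/- libraries left both compared groups whole. Those settings could hardly change a sign. The median was -0.34 without WT replicate 3. Groups did not overlap for 1 factor against WT (Ssbp1; 22.1% of all genes), 2 against Mfn1-/- (Polg and Tfb2m; 26%) and 5 against Mfn2-/- (31.5%), of which Peo1, Ssbp1, Polrmt and Tfb2m were lower and Nrf1 higher. Against WT, Mfn1-/- and Mfn2-/- shared those controls and had medians of -0.14 and 0.01, with 5 and 4 of 8 below 0, beside 51.3% and 48.5% of all genes, and 1 (18.1% of genes) and 2 (32%) factors without overlap.

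The factors differed in how far libraries of 1 group spread. Counting error alone, the inverse square root of the mean count, would give a coefficient of variation (CV) of 2.28% for Nrf1 in WT, and the measured CV was 42.8%. In Mfn1&2-/- Nrf1 had 48.1% against 2.50%, while in Mfn2-/- it had 12.4% against 3.39%. Tfb2m spread by 54.6% in WT (9.59% from counting) but by 6.28% in Mfn2-/- (8.97%), and Peo1 by 33.3% in WT (4.96%) but by 3.30% in Mfn1-/- (6.14%). Tfam and Ssbp1 in WT, at 1.18% and 2.39%, lay below their counting errors of 4.03% and 8.55%. Polg stayed within 1.11 to 1.88 times its counting error in the 4 groups, while Tfb2m and Ssbp1 had lower median ratios (1.17 and 1.30 against 1.48) and higher maxima. With 3 libraries a CV is itself uncertain.

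**Figure D3:**
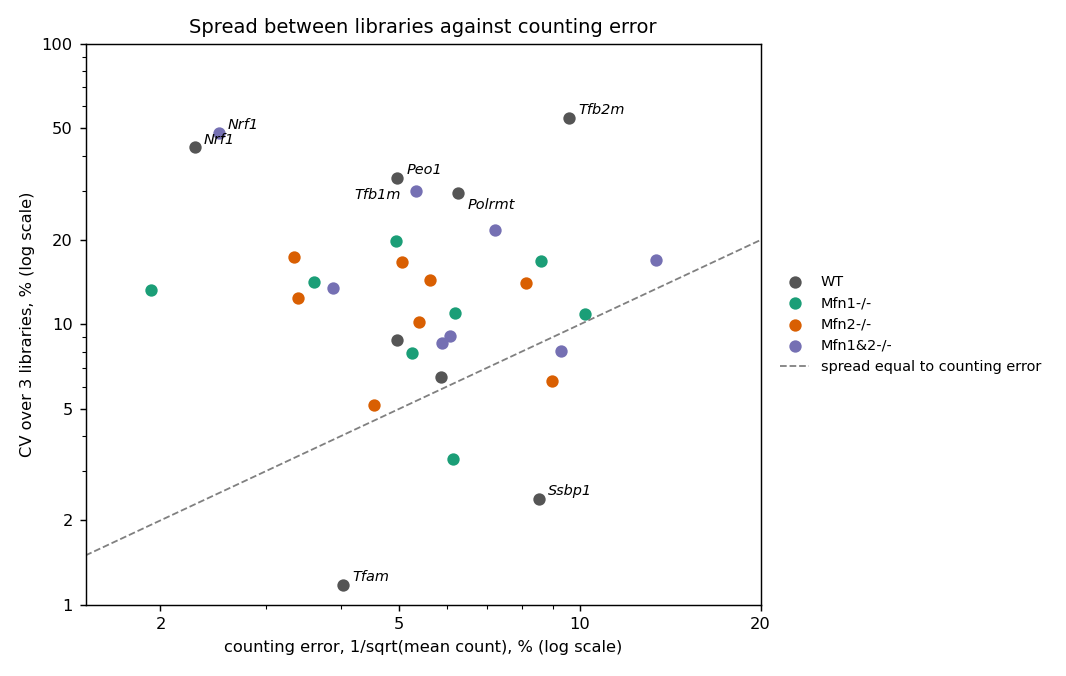
Measured CV over 3 libraries (vertical axis, %, log scale) against the CV expected from counting alone (horizontal axis, %, log scale) for each of the 8 factors in each group. Points on the dashed line spread as counting would give. Nrf1 in WT and Mfn1&2-/- lies 18.8 and 19.2 times above it, and Tfam and Ssbp1 in WT lie below it.

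Across the 12 libraries, log2(CPM + 1) of Ssbp1 and Tfb1m correlated at a Pearson r of 0.737, Tfam and Polg at 0.698, and Polrmt and Tfb1m at 0.682. Nrf1 stood apart from the 7 others, with r from -0.418 (Polrmt) to 0.194 (Polg). These values describe 12 libraries that share 4 group means and depth. Of 9167 genes with a mean of at least 5 CPM, those most like Nrf1 were Zfp704 (r = 0.94), Tmed4 (0.935) and Fam13b (0.913). Those most like Peo1 were Dnajc3 (0.905), Sema5a (0.892) and Calr3 (0.871), and those most like Tfam were Adcy6 (0.931), Mysm1 (0.899) and Uspl1 (0.885).

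The wider machinery was read from 4 lists with 67 genes, of which 56 were measured. In the list of mtDNA replication, repair and nucleoid genes (13 measured), Top3a, a topoisomerase that separates daughter molecules, was the call against WT. It was called in Mfn1&2-/-, where 4.21% of all genes were. It fell from 131 ± 10.5 CPM in WT to 80.1 ± 19.7 in Mfn1&2-/- (-0.71 ± 0.15, edgeR adjusted p = 0.0147), though not without WT replicate 2 or Mfn1&2-/- replicate 2 (highest edgeR adjusted p = 0.0614). Against Mfn2-/-, 0 of 13 rose and 2 fell, where 6.14% and 4.08% of all genes did. The 2 were Top3a (-0.68 ± 0.15, edgeR adjusted p = 0.0113, lost without Mfn2-/- replicate 2 at 0.0503) and Rnaseh1. Rnaseh1, which removes RNA primers, fell from 35.2 ± 2.62 to 19.4 ± 2.91 CPM (-0.85 ± 0.18, edgeR adjusted p = 0.00904), and was called in all 12 omissions. Top3a also passed in the averaged Mfn1 loss (-0.44 ± 0.11, edgeR adjusted p = 0.035), where 4.4% of all genes were called. That call was kept only without WT replicate 1, Mfn1-/- replicate 3, Mfn1&2-/- replicate 1 or Mfn1&2-/- replicate 3 (edgeR adjusted p up to 0.0871 without the others). Of the uncalled genes, the repair glycosylase Ogg1 and the nuclease Mgme1 had the smallest unadjusted p, 0.0219 and 0.041.

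The list of nucleotide supply (11 measured) had 0 calls in 8 comparisons, in which 0.228% to 12.4% of all genes were called. Its smallest unadjusted p-values were 0.00721 for Slc25a33, a pyrimidine nucleotide carrier at 3.85 ± 2.68 CPM in WT and 0.998 ± 0.548 in Mfn1&2-/-, and 0.0163 for Sucla2, a subunit of succinyl-CoA synthetase. The counts at an unadjusted p below 0.05 were 0, 0 and 1 against WT, beside 12.8%, 26% and 18.6% of all genes, and DESeq2 called 0, 0 and 1, beside 1.97%, 14.9% and 7.33%. Of the nuclear regulators (12 measured), 0 were called in 7 comparisons (0.228% to 12.4% of all genes). In the averaged Mfn1 loss 2 rose, where 2.32% of all genes did. Those 2 were the transcription factor Yy1 (0.80 ± 0.18, edgeR adjusted p = 0.0232) and Gabpb2 (0.96 ± 0.25, edgeR adjusted p = 0.0399), which encodes a GABP subunit. Against WT, 2, 1 and 1 of the 12 regulators had an unadjusted p below 0.05 in Mfn1-/-, Mfn2-/- and Mfn1&2-/- (12.8%, 26% and 18.6% of all genes), and DESeq2 called 0, 1 and 1 (1.97%, 14.9% and 7.33%). Yy1 was at 13.0 ± 3.46 CPM in WT, 22.4 ± 1.42 in Mfn1-/-, 14.1 ± 4.57 in Mfn2-/- and 24.7 ± 5.41 in Mfn1&2-/-. The Yy1 call was lost without Mfn2-/- replicate 1, Mfn2-/- replicate 3 or Mfn1&2-/- replicate 2 (highest edgeR adjusted p = 0.0616), and that of Gabpb2 was kept only without WT replicate 3, Mfn1-/- replicate 1, Mfn2-/- replicate 2 or Mfn1&2-/- replicate 2 (edgeR adjusted p up to 0.106 without the others). The other GABP subunits, Gabpb1 and Gabpa, were not called, with smallest unadjusted p-values of 0.00707 and 0.017.

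Mitochondrial transcription and RNA processing (20 measured) was the list with the most calls. In Mfn2-/- against WT, 2 rose and 3 fell, where 4.52% of all genes rose and 6.87% fell. Fastkd2 (0.95 ± 0.23, edgeR adjusted p = 0.0147) and Fastkd5 (0.65 ± 0.18, edgeR adjusted p = 0.0289), RNA-binding proteins of the mitochondrial granule, rose. Mterfd1, of the transcription terminator family (-1.27 ± 0.35, edgeR adjusted p = 0.0276), Elac2, which trims tRNA ends (-0.46 ± 0.11, edgeR adjusted p = 0.0124), and the RNA helicase Supv3l1 (-0.53 ± 0.13, edgeR adjusted p = 0.0135) fell. Without WT replicate 3 none of these 5 passed, at edgeR adjusted p-values up to 0.132, and 2 others of the list did, both higher. Each also depended on further libraries: Mterfd1 on Mfn2-/- replicate 1 (it was also lost with only the groups compared), Elac2 on replicate 2, Supv3l1 on replicate 3, Fastkd2 on WT replicate 2 and Mfn2-/- replicates 1 and 2, and Fastkd5 on WT replicate 2 and all 3 Mfn2-/- libraries.

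Lrpprc, which stabilises mitochondrial mRNAs, differed strongly between libraries. It was at 25.1, 23.5 and 127 CPM in WT, 24.1, 21.4 and 26.8 in Mfn1-/-, 82.8, 86.1 and 90.2 in Mfn2-/-, and 137, 124 and 172 in Mfn1&2-/-. WT replicate 3 stood with the Mfn2-null libraries, and the other 5 Mfn2-intact libraries were below all 6 Mfn2-null ones. Lrpprc rose in Mfn1&2-/- against Mfn1-/- (2.58 ± 0.46, edgeR adjusted p = 0.00366) and in the averaged Mfn2 loss (1.57 ± 0.31, edgeR adjusted p = 0.00414), and was called in all 12 omissions for both. Averaged over both Mfn1 states, Mfn2 loss also showed Fastkd5 (0.48 ± 0.13, edgeR adjusted p = 0.0216) and the poly(A) polymerase Mtpap (0.27 ± 0.08, edgeR adjusted p = 0.0431) higher and Mterfd1 lower (-0.99 ± 0.24, edgeR adjusted p = 0.0141). The value of Lrpprc in the averaged loss was 2.21 without WT replicate 3. Mterfd1 was called in all 12 omissions. Fastkd5 lost its call without WT replicate 2, WT replicate 3 or replicate 3 of any mutant group (edgeR adjusted p up to 0.0589), and Mtpap kept it only without WT replicate 3 or Mfn2-/- replicate 2 (up to 0.118) and lost it with RLE factors.

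Between the double and single losses, 3 genes of this list were higher and 2 lower in Mfn1&2-/- than in Mfn2-/-, where 6.14% and 4.08% of all genes were. Mterfd2, of the terminator family, was higher (0.55 ± 0.10, edgeR adjusted p = 0.00364), as were Supv3l1 (0.49 ± 0.13, edgeR adjusted p = 0.0214) and the exonuclease Rexo2 (0.77 ± 0.22, edgeR adjusted p = 0.0398). Pnpt1, the polynucleotide phosphorylase, fell from 31.3 ± 4.76 to 15.8 ± 4.06 CPM (-0.98 ± 0.21, edgeR adjusted p = 0.0089) and Fastkd2 was lower (-0.80 ± 0.23, edgeR adjusted p = 0.0338). Mterfd2 and Pnpt1 were called in all 12 omissions. Supv3l1 was lost without replicate 2 or 3 of either group (edgeR adjusted p up to 0.0813), and Fastkd2 without any Mfn2-/- library or Mfn1&2-/- replicates 1 or 2 (up to 0.116). Rexo2 was lost without WT replicate 2, Mfn1-/- replicate 3, any Mfn2-/- library or Mfn1&2-/- replicates 2 or 3 (up to 0.149), and also with library size only and with only the groups compared. Mterfd2 also rose against Mfn1-/- (0.39 ± 0.10, edgeR adjusted p = 0.0338), a call lost with library size only and without any Mfn1-/- library, Mfn2-/- replicate 3 or Mfn1&2-/- replicates 2 or 3 (up to 0.115). Pnpt1 was lower in the averaged Mfn1 loss (-0.64 ± 0.15, edgeR adjusted p = 0.0249), though not without WT replicate 1, Mfn1-/- replicates 1 or 2, or Mfn2-/- replicates 1 or 3 (up to 0.0641). Of the uncalled genes, the rRNA methyltransferase Nsun4 and the pentatricopeptide protein Ptcd1 had the smallest unadjusted p, 0.00722 and 0.02.

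**Figure D4:**
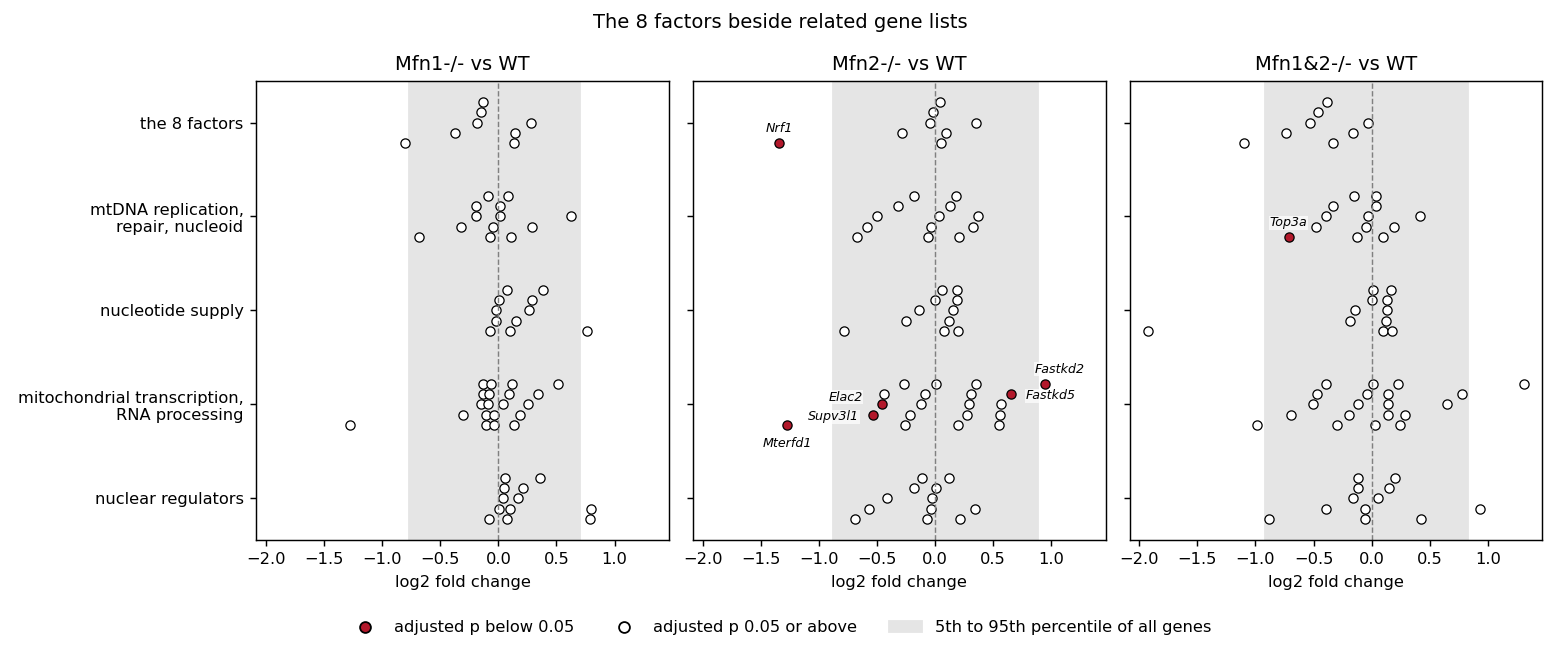
Log2 fold change against WT (horizontal axes) of each gene of the 8 factors and the 4 related lists in the 3 mutant groups. Filled points passed an edgeR adjusted p of 0.05, vertical position within a list only separates the points, and grey spans the 5th to 95th percentile of all 11385 genes. Nrf1 (-1.34) lies below the grey span in Mfn2-/-, and 8 of 8 factors lie left of 0 in Mfn1&2-/-.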

How the data were processed

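Gene counts and CPM were used for 12 libraries. Per the submitters' processing notes, FastQC 0.11.7, STAR 2.7.0a with mm10, and edgeR were used; annotation, strand setting and handling of multi-mapping reads were not given in the sources used here. The deposited counts are raw counts per gene. The deposited CPM signal equalled TMM-scaled CPM computed from the counts (relative difference at most 5.1e-15) and served as that check only. The label of 1 Mfn2-/- pool spells its genotype "Mn2-/-", and its description places it in that group.

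Counts were fitted with edgeR 4.0.16 (R 4.3.3): TMM, filterByExpr (11385 of 11385 genes kept), quasi-likelihood F-tests in a group-means design over 12 libraries with 8 residual degrees of freedom, and Benjamini-Hochberg adjustment over all genes. A change was called at an adjusted p below 0.05. There were 8 comparisons: each mutant against WT, Mfn1&2-/- against each single loss, the interaction, and each loss averaged over both states of the other gene. Standard errors are the log2 fold change divided by the root of F. The fit was tested on simulated data. Libraries of 1 group correlated at 0.968 to 0.985 across genes, and no library pair was identical.

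The members and lists were chosen with earlier results of these data known. Named are the 9 members, list genes called in any comparison, up to 2 uncalled genes per list with the smallest p, the 3 genes most correlated with each called member and Tfam, and Mfn1 and Mfn2. Of the 15 mtDNA-encoded transcripts listed, 0 were matched, and they are not analysed here. Positions are GENCODE vM21 (GRCm38). RefSeq start-site windows matched 9 of 9 members, and no protein sequences were used. Alternatives were RLE factors, library size only, DESeq2 1.42.0, limma-voom (limma 3.58.1), no filter, at least 5 CPM in 3 libraries, a replicate block, only the groups compared, and each library left out.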

Additional observations from a re-analysis of the deposited data

Results flagged for a closer look

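Mterfd2, of the mitochondrial terminator family, responded differently to Mfn2 loss with and without Mfn1. It was at 176, 153 and 202 CPM in WT, 162, 166 and 166 in Mfn1-/-, 142, 157 and 145 in Mfn2-/-, and 203, 216 and 231 in Mfn1&2-/-. Mfn2 loss gave -0.26 ± 0.10 on the log2 scale where Mfn1 was present (edgeR adjusted p = 0.11) and 0.39 ± 0.10 where it was absent (edgeR adjusted p = 0.0338). The interaction was 0.66 ± 0.14 (edgeR adjusted p = 0.0217). It was not called without WT replicate 3, Mfn1-/- replicate 1 or Mfn2-/- replicate 3 (highest edgeR adjusted p = 0.0589, lowest value 0.55).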

How the results depend on the processing

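Of 1256 values of the 8 factors under alternatives, 1227 kept their direction and side of the threshold or were uncalled throughout, 11 lost a call, 18 gained one and 0 called values reversed; 18 uncalled values changed sign, the largest with a size of 0.37 (Tfb2m, Mfn1-/- against WT, without WT replicate 3). The number of factors called moved from 0 to 1 with DESeq2 in Mfn1-/- against WT (0 to 1 with single libraries left out) and from 0 to 2 with DESeq2 in Mfn1&2-/- against WT (0 to 1). Against Mfn1-/- it was 0 to 1 with libraries left out. Against Mfn2-/- it was 1 with library size only, 1 with DESeq2, 1 with only the groups compared and 0 to 2 with libraries left out. In the averaged Mfn1 loss it fell from 1 to 0 with limma-voom and to 0 with the replicate block (Peo1, adjusted p = 0.0616), and was 0 to 1 with libraries left out.

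Over all genes, DESeq2 called 224 in Mfn1-/- against WT (26 with edgeR), 834 in Mfn1&2-/- against WT (479), 1044 against Mfn1-/- (610), 902 in the interaction (470) and 875 in the averaged Mfn1 loss (501). Only the groups compared gave 13 for Mfn1-/-. With 1 library left out the edgeR counts ran from 3 to 51 in Mfn1-/-, 708 to 1429 in Mfn2-/- (1297), 282 to 550 in Mfn1&2-/-, 295 to 689 against Mfn1-/-, 570 to 1302 against Mfn2-/- (1163), 160 to 464 in the interaction and 228 to 592 in the averaged Mfn1 loss. The replicate block gave 276 calls in the interaction. It also ended the list calls of Gabpb2 in the averaged Mfn1 loss and Mtpap in the averaged Mfn2 loss. Same-numbered libraries of different groups correlated in their deviations at -0.167 to 0.196 and differently numbered ones at -0.274 to 0.207. These ranges gave no sign of pairing by replicate number, but cannot show that pools shared no litter, day or batch. The deposited column names carry numbers that differ in part from the replicate numbers, and pairing by them was not tested.

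Scaling by library size only moved the median of all genes in the interaction from -0.01 to -0.12, and the share of calls that were higher from 39.7% to 49.8% in Mfn2-/- against WT, from 51.5% to 38.5% and from 60.1% to 48.2% in Mfn1&2-/- against Mfn1-/- and Mfn2-/-, and from 70.9% to 46.3% in the interaction. Depth limited Tfb2m most, with 45 to 171 counts per library. Counts per gene cannot separate isoforms or, without a stated strand setting, overlapping genes.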
